A study of Homo sapiens
Mus musculus with 3 samples.

Results

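The genes described here were 8 mouse surface receptors used to recognise and follow T cells: Thy1 (ENSMUSG00000032011), Cd2 (ENSMUSG00000027863), Cd5 (ENSMUSG00000024669), Cd28 (ENSMUSG00000026012), Cd4 (ENSMUSG00000023274), Cd8a (ENSMUSG00000053977), Cd44 (ENSMUSG00000005087) and Cd27 (ENSMUSG00000030336). They were listed by identifier and not by a cutoff on their values, though earlier results of these data were known. They are 8 of the 27998 mouse genes in the tables. Their expression was read in 3 libraries of the ICELL8 cx, a system that dispenses cells into nanowells and barcodes the transcripts of each well. Every library came from an equal mixture of 4 established lymphocyte lines, namely EL4 (a mouse CD4+ T-cell lymphoma), IVA12 (a mouse B-cell hybridoma), Jurkat and TALL-104 (human T-cell leukemias). No treatment was compared, and per the study's methods the medium of TALL-104 held IL-2. All cells were cultured lines, and no primary T cells were measured. The official kit (3'DE) was used for 2 libraries, and a modified kit protocol that digests the barcoding primers before the cDNA is amplified (3'DE-UMI) for 1 library, which allows molecules to be counted by unique molecular identifiers (UMIs). Per the study's sample records, the second 3'DE library was made from the same batch of mixed cells as the 3'DE-UMI library (called the UMI library below), and 3'DE library 1 from another.

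A T cell recognises antigen through its T-cell receptor, and the surface proteins around that receptor set how strongly the cell responds. Cd4 and Cd8a are coreceptors that bind MHC molecules and bring a kinase to the receptor. Cd28 and Cd27 deliver costimulation, Cd2 is an adhesion molecule that strengthens contact with the partner cell, and Cd5 damps receptor signalling. Thy1 is a small lipid-anchored glycoprotein that has long been used as the marker of mouse T cells. Cd44 binds hyaluronan, rises on activated and memory T cells, and is also carried by many other leukocytes, B-lineage cells included.

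The 3 libraries held 35581264, 109702878 and 44883618 gene-assigned reads, in the order 3'DE library 1, 3'DE library 2 and UMI library, which is kept below wherever 3 values are given. After filtering, 922, 773 and 700 wells held mouse reads with under 10% human reads, and these 2395 wells fell into 2 clusters on mouse genes that excluded the 8 receptors. Mouse cluster 1 had 472, 497 and 470 wells with a median of 28451.5, 37245 and 30152 mouse reads. Mouse cluster 2 had 450, 276 and 230 wells with a median of 20223, 21380.5 and 33412.5 mouse reads. The clusters are called by number. No reference table used here pairs mouse identifiers with symbols, so the marker identifiers set for EL4 and IVA12 could not be checked and were not applied. Wells of the human cells (533, 484 and 557) served as background, as a human cell has no mouse transcript. They took 1.44%, 2.11% and 0.721% of all mouse reads, unevenly: the 25% of human wells with most mouse reads held 87.0%, 74.3% and 67.0% of these, at a median of 2041, 5579 and 884 mouse reads per well. The libraries shared 529, 539 and 469 well barcodes pairwise, as chips use the same barcode set, and values were never joined across libraries by barcode.

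Levels are given as CPM, the reads of a gene summed over the wells of a cluster in a library and scaled to 1000000 mouse reads. Thy1, Cd5, Cd28 and Cd27 were higher in mouse cluster 1, Cd44 was higher in mouse cluster 2, and the difference for Cd2 did not pass the test. Of the 8 genes, 6 had enough reads for the comparison of the clusters, and 5 of these 6 passed edgeR's quasi-likelihood F-test with a Benjamini-Hochberg adjusted p under 0.05, 4 of them higher in mouse cluster 1 and 1 lower. Over all mouse genes tested, 39.2% passed, so a call as such was common between these clusters. The median log2 difference was 5.32 over the 6 receptors and -0.03 over all 12086 genes. With Cd27 set at the smaller of its ratios at 3 reads, given below, the median of the receptors was 3.99.

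**Figure D1:**
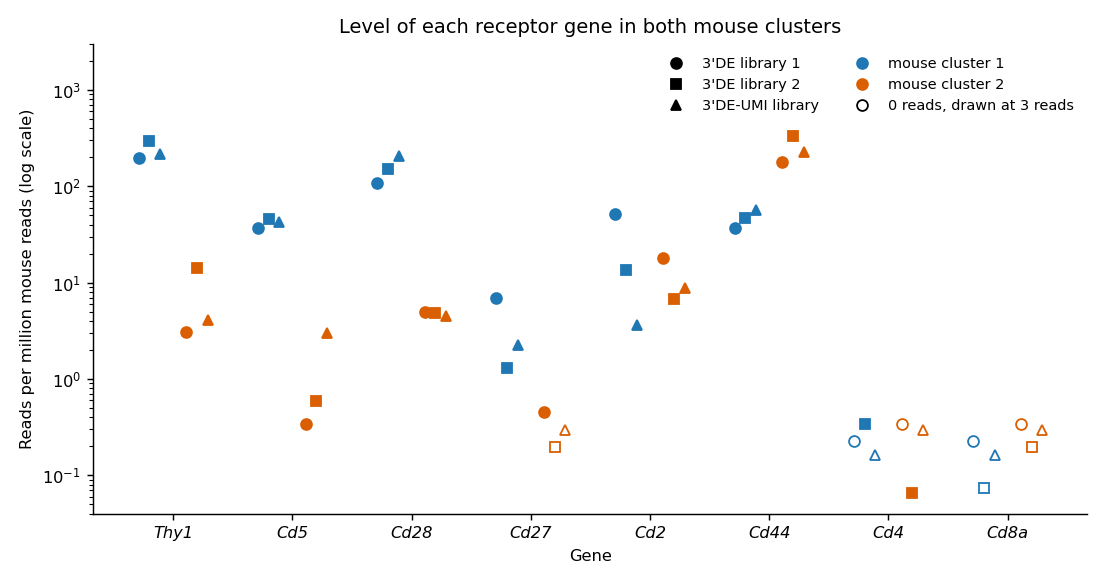
Level of each receptor gene in CPM (log axis) in mouse cluster 1 (blue) and mouse cluster 2 (orange), 1 symbol per library. Thy1, Cd5 and Cd28 were higher in mouse cluster 1 in every library. Cd27 had reads in 35, 12 and 6 wells of mouse cluster 1. In 3'DE library 2 and the UMI library this stood against 0 reads in mouse cluster 2. The UMI library showed no difference in shares of wells with Cd27 beyond its limit. Cd44 was higher in mouse cluster 2, the values of Cd2 overlapped, and Cd4 and Cd8a were at or near 0 reads. Open symbols are 0 reads, drawn at the level of 3 reads.

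Thy1 was at 198, 297 and 215 CPM in mouse cluster 1, a mean of 237 ± 52.9 (SD, n = 3 libraries). In mouse cluster 2 it was at 3.09, 14.1 and 4.06 CPM, a mean of 7.09 ± 6.09 (SD, n = 3). All libraries of mouse cluster 1 were above all of mouse cluster 2, and the library with the smallest distance was 3'DE library 2. The ratio of the clusters was 64.0, 21.1 and 53.0 in the 3 libraries, and 74.3, 9.11 and 82.3 from the mean CPM of single wells, which weights wells equally. The fitted log2 difference was 5.54 (SE 0.34, edgeR adjusted p 3.30e-06). This SE and those below were derived from the F statistic of the test. Of all Thy1 reads in a library, 96.9%, 92.1% and 96.2% lay in wells of mouse cluster 1.

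A Thy1 read was found in 84.1%, 84.7% and 53.0% of mouse cluster 1 wells, with exact 95% binomial intervals of 80.5 to 87.3%, 81.2 to 87.8% and 48.4 to 57.6%. These and all other intervals and limits on shares of wells cover counting error only. Reads are not independent molecules, so intervals on ratios of reads, given below, are too narrow. In mouse cluster 2 the share was 3.56%, 48.6% and 2.17%. The value of 3'DE library 2 stands apart from the other libraries, yet the wells behind it held few reads each: the median was 1 read in wells with any, and 116 of 134 such wells had 1 or 2 reads. Human wells of that library also held Thy1, in 29.3% of wells against 2.25% in 3'DE library 1 and 1.26% in the UMI library. Human wells had median depths of 21426, 34368 and 16457 reads of both species. The share in mouse cluster 2 of 3'DE library 2, at a median of 21685 reads per well, was above that of the human wells.

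The wells of each cluster and library were divided into 4 depth groups of like size by their mouse reads. In mouse cluster 2 of 3'DE library 2, 29.0% of wells had a Thy1 read in the shallowest group and 71.0% in the deepest. The level moved the other way, from 72.5 CPM in the shallowest group to 8.40 CPM in the deepest. The human wells of that library showed the same course, with a Thy1 read in 12.4% of wells of the shallowest group and 46.3% of the deepest, at 619 and 148 CPM of their few mouse reads. With each well thinned to 5000 reads the share was 59.4% in mouse cluster 1, 9.70% in mouse cluster 2 and 5.37% in human wells of 3'DE library 2, where wells with fewer reads were left out (478, 237 and 447 wells remained). In 3'DE library 1 the thinned shares were 52.7%, 0.468% and 1.36%, and in the UMI library 35.4%, 1.35% and 0.398%. Thy1 in mouse cluster 2 of these latter libraries, with counts of 2 and 3 thinned wells, had intervals that overlapped those of the human wells. In 3'DE library 1 they were 0.0568 to 1.68% in mouse cluster 2 and 0.501 to 2.94% in human wells. With all reads, the UMI library had 41 Thy1 reads in 5 mouse cluster 2 wells, up to 19 in a well, and 12 reads in 7 human wells, up to 4 in a well.

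**Figure D2:**
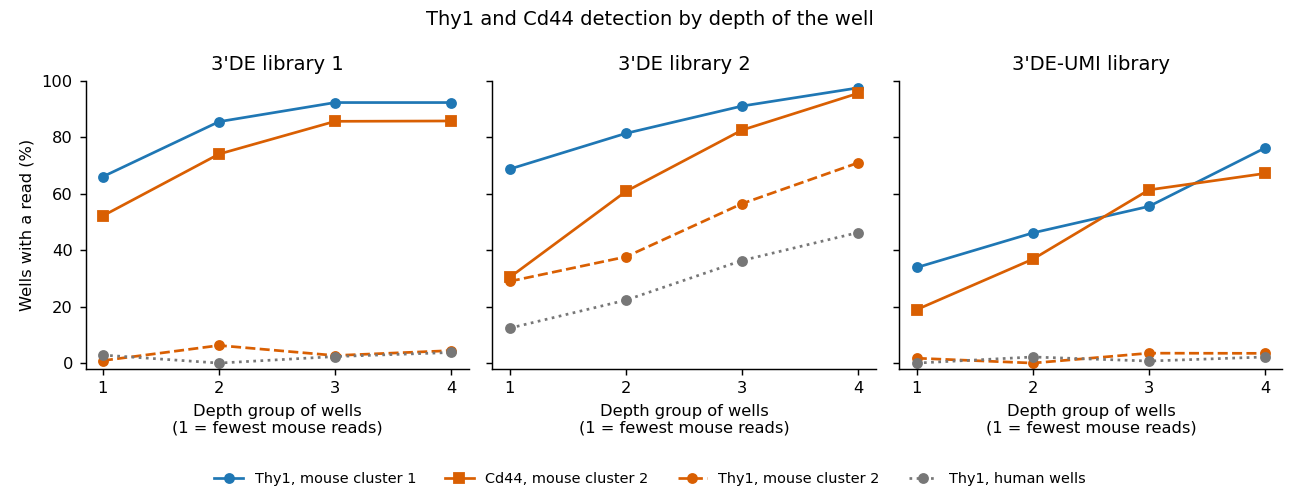
Share of wells with a read of Thy1 or Cd44 (vertical axis, %) against the depth group of wells (horizontal axis, 1 = fewest mouse reads), in 1 panel per library. Thy1 in mouse cluster 2 and in human wells rose with depth in 3'DE library 2, to 71.0% and 46.3%, and stayed under 7% in the other libraries.

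Cd28, the costimulatory receptor that binds the B7 ligands, was at 109, 152 and 208 CPM in mouse cluster 1, a mean of 156 ± 50.0 (SD, n = 3). In mouse cluster 2 it was at 4.92, 4.81 and 4.46 CPM. The libraries of the clusters did not overlap, and the ratio was 22.1, 31.6 and 46.7. The fitted log2 difference was 5.25 (SE 0.30, edgeR adjusted p 2.52e-06). A read of Cd28 was found in 62.3%, 57.3% and 37.9% of mouse cluster 1 wells against 2.67%, 6.52% and 2.17% of mouse cluster 2 wells. Human wells had 0.188%, 4.55% and 0.898%, so the share in mouse cluster 2 of 3'DE library 2 was near that background. In 3'DE library 1 the exact intervals lay apart, at 1.39 to 4.61% in mouse cluster 2 and 0.00475 to 1.04% in human wells. In the UMI library they overlapped.

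Cd5, the receptor that lowers T-cell receptor signalling, was at 36.7, 45.8 and 42.3 CPM in mouse cluster 1 (mean 41.6 ± 4.57, SD, n = 3). In mouse cluster 2 only 3, 9 and 30 reads were counted, or 0.344, 0.593 and 2.97 CPM. The 30 reads of the UMI library lay in 2 wells, and 1 well held 28 of them with a single UMI. The ratio of the clusters was 107 in 3'DE library 1 (exact 95% counting interval 36.3 to 520, with reads taken as independent), 77.2 in 3'DE library 2 and 14.2 in the UMI library. From the mean CPM of single wells, which weights wells equally, it was 19.6, 14.1 and 45.5, so the order of the libraries turned. The fitted log2 difference was 5.58 (SE 0.56, edgeR adjusted p 6.08e-05). Without the well holding most reads of each gene in each library and cluster, an alternative chosen after the data were seen, it was 7.41. Wells with a Cd5 read made up 35.4%, 33.8% and 13.0% of mouse cluster 1, 0.444%, 2.90% and 0.870% of mouse cluster 2 and 0%, 3.51% and 0% of human wells, where 0 allows up to 0.563% and 0.539%.

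Cd27, a costimulatory member of the tumour necrosis factor receptor family, was seen in few wells. Its level in mouse cluster 1 was 6.92, 1.31 and 2.25 CPM, from reads in 35, 12 and 6 wells. Of the mouse cluster 2 wells, 1 well of 3'DE library 1 held 4 reads, and the other libraries had none. With mouse cluster 2 set at 3 reads per library, mouse cluster 1 was 6.62-fold higher in 3'DE library 2 and 7.58-fold higher in the UMI library. These ratios are no bounds, as reads are not independent molecules and those of mouse cluster 1 in the UMI library stood for 6 UMIs. In shares of wells, mouse cluster 1 had 2.41% and 1.28% in these libraries. Finding none in mouse cluster 2 allows up to 1.09% and 1.30%, so the UMI library showed no difference in shares beyond its limit. Cd27 passed the test (edgeR adjusted p 0.0114), but its fitted difference of 5.40 (SE 1.36) depends on how zeros are treated and is no bound, and without 3'DE library 1 the call was lost (adjusted p 0.0984).

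Cd44, the hyaluronan receptor, ran the other way. It was at 36.8, 47.5 and 57.5 CPM in mouse cluster 1 (mean 47.2 ± 10.4, SD, n = 3) and at 178, 334 and 229 CPM in mouse cluster 2 (mean 247 ± 79.7, SD, n = 3). Every library of mouse cluster 2 was above every library of mouse cluster 1, and the level was 4.83, 7.03 and 3.98 times as high. The fitted log2 difference was -2.12 (SE 0.22, edgeR adjusted p 7.93e-05). In 3'DE library 2, a single well held 1255 of the 5070 Cd44 reads of mouse cluster 2, or 24.8%, and without it the level was 253 CPM.

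Cd44 was read in 74.4%, 67.4% and 46.1% of mouse cluster 2 wells and in 34.7%, 33.6% and 16.4% of mouse cluster 1 wells. Human wells had a Cd44 read in 2.81%, 7.44% and 0.898% of cases, so both mouse clusters were above the background in each library. After thinning to 5000 reads per well, the shares were 50.1%, 52.7% and 32.3% in mouse cluster 2, and 16.1%, 14.4% and 10.04% in mouse cluster 1. Cd44 was thus the only one of the 8 genes with a read in a higher share of mouse cluster 2 wells than of mouse cluster 1 wells in all libraries. Reads were not scaled by transcript length, so the levels of different genes are not ranked here.

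**Figure D3:**
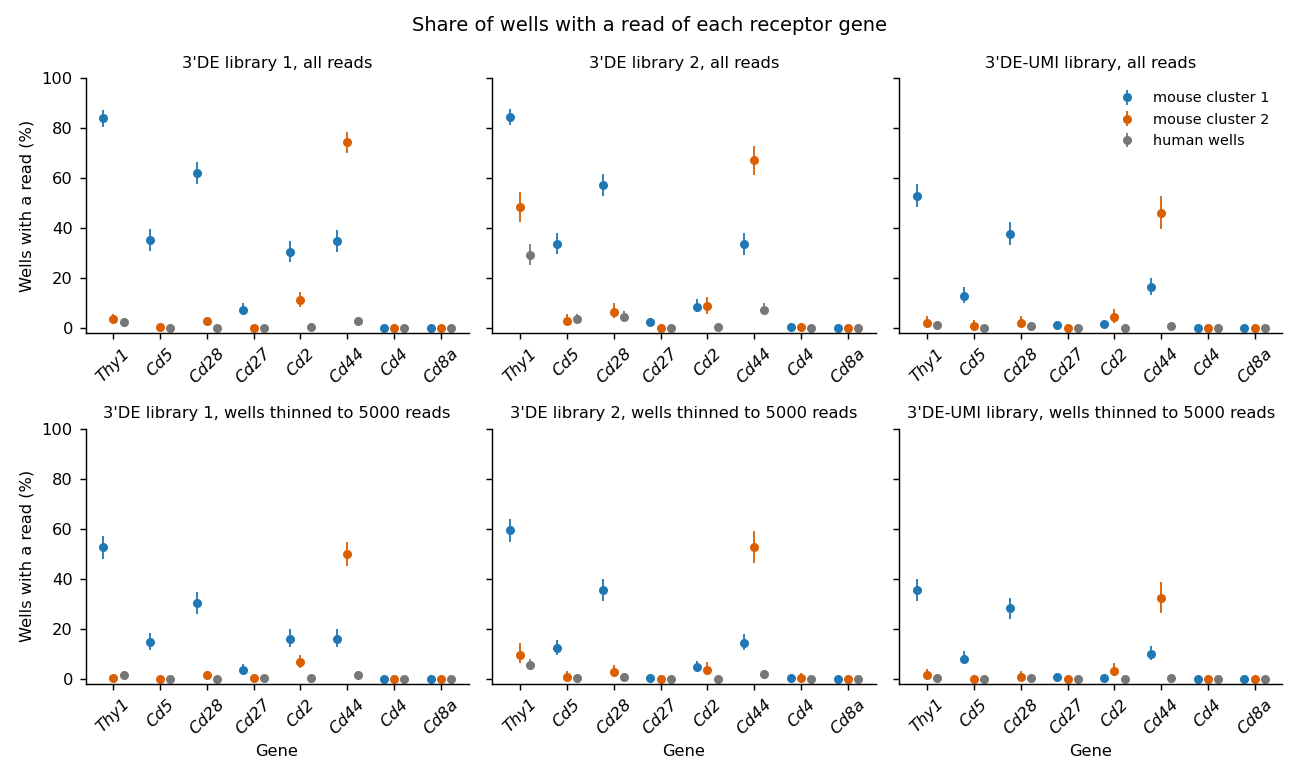
Share of wells with a read of each receptor gene (vertical axis, %) in mouse cluster 1, mouse cluster 2 and human wells, for all reads (upper panels) and for wells thinned to 5000 reads (lower panels), 1 column per library, with exact 95% binomial intervals as bars. In 3'DE library 2 Thy1 reached 48.6% of mouse cluster 2 wells and 29.3% of human wells with all reads, and 9.70% and 5.37% after thinning, whereas Cd44 in mouse cluster 2 went from 67.4% to 52.7%.

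Cd2, the adhesion receptor, gave a different value in each library. In mouse cluster 1 it was at 52.1, 13.4 and 3.68 CPM, and in mouse cluster 2 at 18.1, 6.72 and 8.72 CPM. The ranges of the clusters overlapped. Within a library, mouse cluster 1 was 2.88 and 2 times as high in the 3'DE libraries. In the UMI library it was 0.422 times as high, or 0.247 times with wells weighted equally. Exact 95% counting intervals of the ratios of summed reads were 2.42 to 3.45, 1.62 to 2.50 and 0.303 to 0.587. They take every read as independent and are too narrow. In the UMI library the 67 and 88 reads stood for 7 and 11 UMIs. Over all libraries the fitted log2 difference was 0.74 (SE 0.51), which did not pass (edgeR adjusted p 0.280). Without the UMI library it was 1.49 and passed (edgeR adjusted p 0.000111).

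Cd2 was read in 30.5%, 8.65% and 1.49% of mouse cluster 1 wells and in 11.3%, 8.70% and 4.35% of mouse cluster 2 wells. The shares in human wells were 0.375%, 0.413% and 0%, the last of which allows up to 0.539% of wells at 3 wells of the total. Cd2 was therefore above the background in mouse cluster 2 of each library. The 67 Cd2 reads of mouse cluster 1 in the UMI library came from 7 wells, and 1 well held 47.8% of them. Those wells had 7 UMIs in all, against 11 UMIs in 10 wells of mouse cluster 2.

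**Figure D4:**
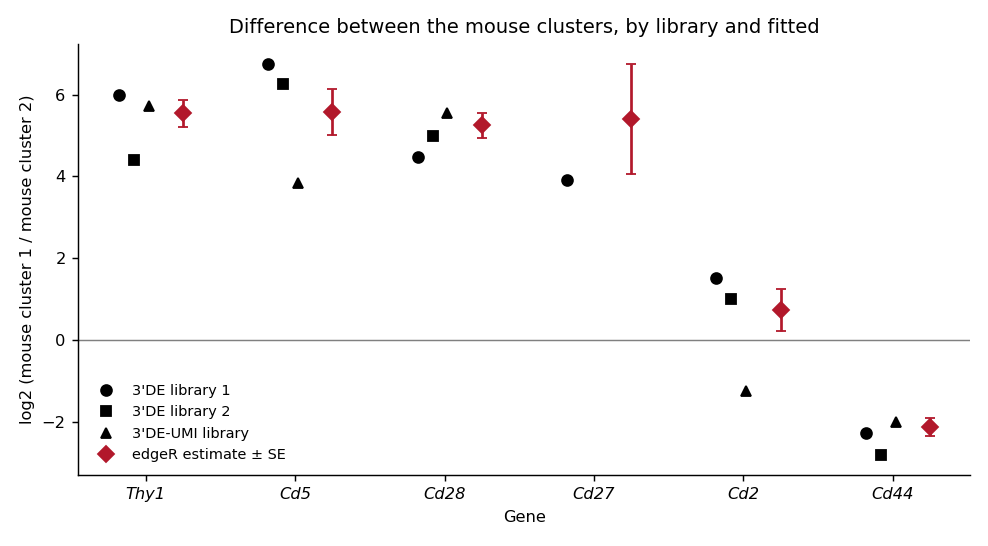
Difference between the mouse clusters on the log2 scale for the 6 receptor genes tested, with positive values higher in mouse cluster 1. Black symbols are the ratio within each library (Cd27 only where mouse cluster 2 had reads). Red diamonds are the edgeR estimate with an SE derived from its F statistic. Thy1, Cd5, Cd28 and Cd27 lie above 0 and Cd44 below it in the libraries drawn, and Cd2 lies on both sides.

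The coreceptors were almost absent. Cd4 had 15 reads in 4 wells, all in 3'DE library 2. Of these wells, 3 belonged to mouse cluster 1, with 1, 10 and 3 reads, and 1 to mouse cluster 2, with 1 read. Each of the 4 also held Thy1, with 10, 47, 2 and 1 reads. In 3'DE library 1 and the UMI library no Cd4 read was counted in mouse cluster 1. At 3 wells this allows a share of up to 0.636% and 0.638% of wells with a read. A count of 3 reads would be 0.226 and 0.165 CPM. These levels are no bounds, as reads are not independent molecules. The median gene of mouse cluster 1 in the UMI library had 13.4 reads per UMI. The study describes EL4 as a CD4+ line, and Cd4 transcripts were not detectable at this depth beyond those wells.

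Cd8a had 0 reads in every barcode of every library. Over the 1439 wells of mouse cluster 1 this allows a share of up to 0.208% with a read, and over the 956 wells of mouse cluster 2 up to 0.314%. The lowest level at 3 reads was 0.0741 CPM, in mouse cluster 1 of 3'DE library 2. It is no bound either, as reads are not independent molecules. Neither coreceptor passed the filter on low counts, so neither entered a test.

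The second question was whether the protocol changed the reading of each receptor. In mouse cluster 1, Cd2 was lower in the UMI library than in the 3'DE libraries, with a fitted log2 difference of -3.31 (SE 0.73, edgeR adjusted p 0.00729). Cd2 was the single receptor called of 6 tested, where 12.4% of all 11817 genes tested passed. This comparison sets 1 library against 2, and the lone UMI library is assumed to vary like the others; an exact permutation test of such groups cannot go below 0.333 and was not run. Against 3'DE library 2, from the same cell mixture, the log2 difference was -1.87, against 3'DE library 1 it was -3.82, and the 3'DE libraries themselves differed by -1.96 (library 2 minus library 1). The part of the cell mixture in the difference was not tested.

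Thy1, Cd5, Cd28, Cd44 and Cd27 did not pass the test in mouse cluster 1, which does not show that their levels were equal. Their fitted log2 differences, 3'DE-UMI against 3'DE, were -0.33 (SE 0.35) for Thy1, -0.10 (SE 0.40) for Cd5, 0.55 (SE 0.34) for Cd28 and 0.32 (SE 0.38) for Cd44. For Cd27 the value was -1.01 (SE 0.99). For mouse cluster 2, 0 of 5 receptors tested passed edgeR's test, 0 had an unadjusted p under 0.05 and DESeq2 called 0, against 2.37% of all genes by edgeR. Cd44 there differed by -0.34 (SE 0.52).

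**Figure D5:**
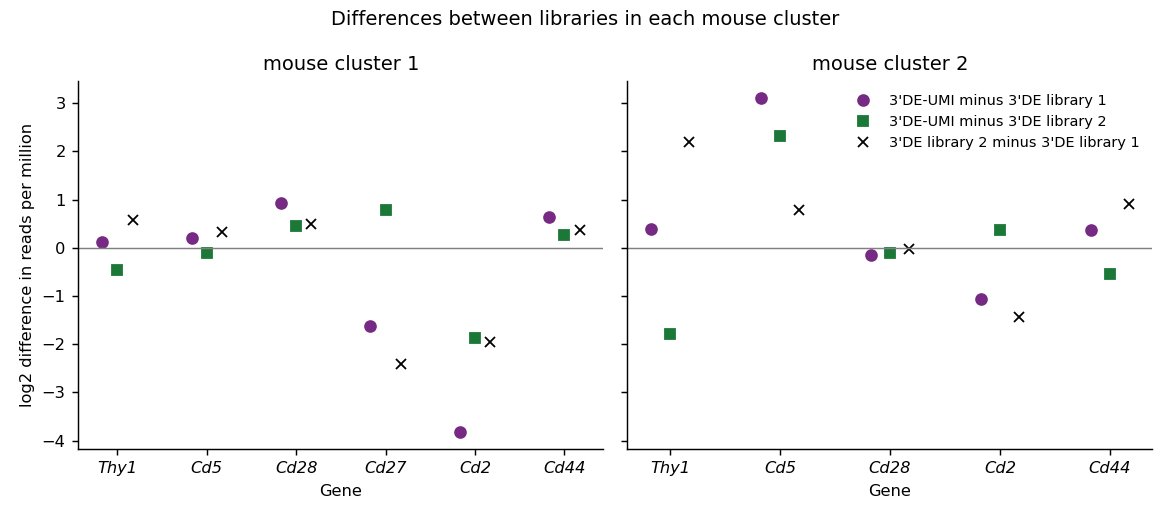
Log2 differences in CPM between libraries (vertical axis) for the receptor genes in each mouse cluster: 3'DE-UMI minus 3'DE library 1 (circles), 3'DE-UMI minus 3'DE library 2 of the same cell mixture (squares) and the difference between the 3'DE libraries (crosses). In mouse cluster 1 Cd2 lies at -3.82, -1.87 and -1.96, and Thy1, Cd5, Cd28 and Cd44 lie within 1 of 0.

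In mouse cluster 1 a smaller share of wells had a read of Thy1, Cd5, Cd28 or Cd44 in the UMI library than in either 3'DE library. For Cd5, Cd28 and Cd44 the median number of reads in wells with a read was higher in the UMI library. The mean for Cd28 was 4.92, 21.6 and 21.3 reads, so not higher than in 3'DE library 2. For Thy1 the median in wells with a read was 6, 12 and 12 reads. Cd28 was read in 37.9% of mouse cluster 1 wells there, with a median of 16 reads in wells with any, against 62.3% of wells with a median of 4 reads in 3'DE library 1 and 57.3% with 10 in 3'DE library 2. For Cd5 the medians were 2, 5 and 8 reads, and for Cd44 in mouse cluster 2 they were 4, 10 and 18. A well of mouse cluster 1 had no read of any of the 6 receptors other than Cd4 and Cd8a in 4.66%, 7.44% and 26.2% of cases, and in 20.04%, 20.1% and 40.2% after thinning to 5000 reads. The share was higher in the UMI library at an equal number of reads per well as well, although reads per molecule were not made equal. With 2 libraries against 1 no test was run on these shares.

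UMI counts were deposited for the UMI library. In mouse cluster 1 they gave 440 molecules of Thy1 in 228 wells, 257 of Cd28 in 168 wells, 79 of Cd44 in 67 wells, 67 of Cd5 in 57 wells and 6 of Cd27 in 6 wells. A well with Thy1 thus held 1.93 UMIs on average, and a well with Cd5 1.18. The mouse cluster 2 wells held 177 UMIs of Cd44 in 98 wells, and 4 of Thy1 in 4 wells. Each Thy1 UMI of mouse cluster 1 stood for 8.90 reads, each Cd5 UMI for 11.5, each Cd44 UMI for 13.2 and each Cd28 UMI for 14.8, where the median over 6191 genes with at least 20 UMIs was 13.4. Scaled to 1000000 UMIs, Thy1 was at 280 against 215 CPM in reads, and Cd28 at 164 against 208 CPM.

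The difference between the clusters was next compared between the protocols. Cd2 was called in this interaction, at -2.41 on the log2 scale (SE 0.71, edgeR adjusted p 0.0362): relative to mouse cluster 2, mouse cluster 1 was lower under 3'DE-UMI than under 3'DE. The 3'DE-UMI side is a single library, with Cd2 in 7 and 10 wells, so the spread in this test comes from the 3'DE libraries alone. It was 1 of 6 receptors tested, where 2.27% of all 13241 genes tested passed. The call was lost under DESeq2, with wells thinned to 5000 reads, with UMI counts and with a mixed-well limit of 5%. Cd5 came next at -2.51 (SE 0.77, edgeR adjusted p 0.0509), and without the top wells, 1 of which held 28 reads, it was 0.72. Thy1, Cd28, Cd44 and Cd27 had values of 0.77, 0.90, 0.66 and 3.59, none past the test.

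Receptors were also looked at together in single wells. At 5000 reads per well, 1 or more of these 6 receptors was read in most mouse cluster 1 wells, and 2 or more were read in 172 of 459, 172 of 478 and 86 of 458 wells. Mouse cluster 2 wells with 2 or more were fewer, at 17 of 427, 24 of 237 and 2 of 223. Within mouse cluster 1, wells with a Thy1 read had a Cd28 read in 31.4%, 37.0% and 30.2% of cases, and wells without one in 29.0%, 33.0% and 27.0%. These shares are a description of thinned wells, which share library and cluster, and no test was run.

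Across the 2395 mouse wells, Thy1 and Cd28 had a mean Pearson's r of 0.385 over the 3 libraries on log-scaled reads, Thy1 and Cd5 0.289, and Thy1 and Cd44 -0.188. Among 6726 other genes, Cd28 ranked at 58 by likeness to Thy1, and Thy1 ranked at 14 by likeness to Cd5. The gene most like Thy1 was ENSMUSG00000000782 (mean r 0.564), for which no symbol was used here. The wells share library, depth and the division into clusters, so these correlations carry no p-value, and the 3 pairs were farthest from 0 in 3'DE library 1 (0.541, 0.359 and 0.253 for Thy1 and Cd28).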

How the data were processed

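The data were 3 ICELL8 libraries of single wells, of which 1 had been made with the 3'DE-UMI protocol. The deposited tables held raw counts of reads per gene and well on a joint hg19 and mm10 reference, without collapsing of UMIs. Per the study's methods, the authors made such read counts with the mappa software and STAR 2.7.0b. For the 3'DE-UMI library the deposited UMI counts were used as well, an output of Drop-seq_Tools, which the methods pair with STAR 2.4.2a. The methods say that reads were downsampled, and whether the deposited counts follow that step is not given in the sources used here. Depth per library is given in the report.

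A well was kept with at least 1000 reads and 200 genes, and set aside as mixed when the minor species held 10% or more of its reads. No doublet caller was run, so wells with 2 cells of the same species remain. Mouse genes were divided into 2 parts, with the 8 receptors in the first. Wells were clustered in scanpy 1.11.5 (scaling to 10000 counts, 1000 variable genes, 20 components, 15 neighbours, Leiden resolution 0.1) on each part, and each gene was tested on clusters made from the other part. Clusters made from the part with the receptors placed 99.5% of wells alike.

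Sums of reads over the wells of each cluster in each library were tested in edgeR 4.0.16 (TMM, filterByExpr, quasi-likelihood F-test, two-sided, Benjamini-Hochberg over all mouse genes tested, threshold 0.05), with the library as a block where clusters were compared. The libraries were the replicates, and since separate cultures are not stated, p-values measure the spread between these libraries, which may be technical. Each SE of an edgeR estimate is the absolute log2 difference divided by the square root of its F statistic. DESeq2 1.42.0, other size factors, filters and groupings were run as alternatives, and the code was tested on simulated data. Shares carry exact (Clopper-Pearson) 95% binomial intervals, and shares of 0 wells a limit of 3 wells. For 0 reads the level at 3 reads is given, which is no bound. All 8 receptors are named, as the rule set. They, the tests and the lists were chosen with earlier results of these data known. Lists of other T-cell surface genes, ligands, partners and cell type markers had been set by symbol. The cell type markers also carried identifiers. No reference table could match or check these genes, so the lists were not run, and gene positions and sequences are not given for the same reason.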

Additional observations from a re-analysis of the deposited data

Results flagged for a closer look

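Cd2 stood out because mouse cluster 1 exceeded mouse cluster 2 under one protocol only. The interaction was -2.41 on the log2 scale (SE 0.71, edgeR adjusted p 0.0362). Mouse cluster 1 was above mouse cluster 2 in 2 of 2 3'DE libraries (2.88 and 2 times) and below it in the single 3'DE-UMI library (0.422 times), where Cd2 rested on 67 reads from 7 wells of mouse cluster 1 and 88 reads from 10 wells of mouse cluster 2. The level in mouse cluster 1 also fell between the 3'DE libraries, from 52.1 to 13.4 CPM, so the part of protocol and of cell mixture was not tested. Over the alternatives the adjusted p ranged from 0.00559 to 0.820, and 5 of 9 kept the call.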

How the results depend on the processing

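Thy1, Cd5, Cd28 and Cd44 kept their direction and their call between the mouse clusters under all 13 alternatives, which included the fit with no replicate block of libraries and 1 alternative chosen after seeing the data, without each gene's top wells. Of 40 counts of receptors called, 36 stayed within 1.5 times the reported one and 4 did not, all in the interaction of cluster and protocol: 1 was reported, DESeq2, wells thinned to 5000 reads and UMI counts gave 0, and wells with at least 5000 reads gave 3. In the comparison of clusters, leaving out 1 library gave 4 to 6. With a mixed-well limit of 5% the single interaction call was Cd5 (adjusted p 0.0330), not Cd2. Cd2 passed between the clusters without the 3'DE-UMI library and with UMI counts (1.11, adjusted p 0.0173). Over all genes, 4742 were called between the clusters, against 3054 without 3'DE library 1, 3003 without 3'DE library 2 and 2993 with no block, and 301 in the interaction against 51 by DESeq2, 127 thinned and 7 with UMI counts. Among protocol calls in mouse cluster 2, 32.4% were higher in 3'DE-UMI, against 10.8% by DESeq2, 47.8% thinned and 74.6% with UMI counts. Of 256 shares of wells, 84 moved beyond their interval, 28 by thinning to 5000 reads, 32 by thinning to 2000, 23 by asking for 3 reads and 1 by a minimum of 5000 reads. Protocol and interaction fits without 1 library could not be fitted, for lack of residual degrees of freedom or of a protocol. The list of surface genes could not be matched and gave no value. The cause of these changes was not tested. Cd4 and Cd8a had too few reads to be tested at this depth, and Cd27 rested on few wells.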
